A study of Mus musculus with 11 samples.

Results

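Clone 17 is 1 of 11 clonal lines of mouse embryonic stem cells whose messenger RNA was sequenced, and it is described here for the transcripts of its chromosome 19, which stood at about 1.5 times their level in the other 10 clones. The clone and the chromosome were selected on these same counts, so everything in the comparison of clone 17 with the other 10 is a description and carries no test. The members are the 360 genes of chromosome 19 with a mean of at least 5 CPM (counts of a gene scaled to a common library size) over the 11 clones, out of 690 chromosome 19 genes in the table and 10354 genes at that level in all. Of the other 330 chromosome 19 genes, 82 had no count in any clone, 185 had counts but a mean under 1 CPM, and 63 lay between 1 and 5 CPM, with a median log2 difference of 0.29 from the other clones. Just over the limit stood Acy3, at a mean of 5.02 CPM, and Cutc, at 5.07, and just under it Fen1, at 4.94, and Frat2, at 4.69.

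Each line came from EBRTcH3, a mouse embryonic stem cell line that makes a tetracycline-controlled transactivator from its own ROSA26 promoter. All 11 lines, clone 17 and the 10 it is set against, carry the same kind of insert: several barcoded reporters driven by the mouse Pgk1 promoter (mPGK), placed at random positions by piggyBac transposition. All were picked as single colonies from cells sorted for strong eGFP and grown with leukemia inhibitory factor, the MEK inhibitor PD0325901 and the GSK-3 inhibitor CHIR99021. No treatment separates the clones, which the labels number 16 to 26. Each clone has 1 library, so the SD over the other 10 clones mixes differences between clones with differences between libraries, and clone 17 has no error of its own.

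Embryonic stem cells in culture are known to gain or lose whole chromosomes, and cells with such a gain can overgrow a dish. A chromosome present in an additional copy gives its genes more template, and for most genes transcript levels follow the template number. Genes under feedback, or limited by a factor encoded elsewhere, can depart from it, which is called dosage compensation when the level stays near that of the balanced state. These are general facts about dosage. The files hold RNA counts and no DNA measurement, so the copy number of chromosome 19 in clone 17 was not tested. In a bulk library a 1.5-fold level in all cells also cannot be told apart from a larger change in some of them.

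The total count in genes was 12962177 in clone 17 and 10846005 to 16868500 over the 11 clones, with a median of 14378599. Chromosome 19 genes took 4.80% of all counts in clone 17 (Wilson 95% confidence interval 4.78 to 4.81%, which covers counting error only). In the other 10 clones they took 3.29% ± 0.0762 (SD, n = 10), from 3.15 to 3.39%, a ratio of 1.46. The embryonic stem cell markers fixed for the comparison were abundant in clone 17: Pou5f1 stood at 777 CPM, Sox2 at 718, Nanog at 621, Esrrb at 1030.4 and Tfcp2l1 at 1958. Of 14 listed fibroblast genes, Col3a1, S100a4, Fap, Dcn, Lum and Postn had 0 CPM in clone 17. The 3 that averaged at least 5 CPM, Fn1 (6111 CPM), Vim (240.4) and Pdgfrb (15.4), were within the range of the other clones, and the list summed to 6369.6 CPM in clone 17 and to between 4038 and 7524 in the others.

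For every gene the difference is log2(CPM + 1) in clone 17 minus the mean of log2(CPM + 1) over the other 10 clones. It understates the change of genes at low levels because of the added 1 CPM. The median difference over the 360 chromosome 19 genes was 0.57, or 1.49-fold, with quartiles at 0.36 and 0.77. Each of the other 10 clones, set against its own other 10, had a chromosome 19 median between -0.12 and -0.01. In clone 17 the 17 remaining chromosomes other than 14, 15 and Y had medians from -0.07 to 0.05. Clone 17 also had a chromosome 15 median of 0.26, beside 0.28 in clone 16, 0.18 in clone 18 and 0.31 in clone 19. In clones 20 to 26 that median lay from -0.17 to -0.11. On chromosome 14 clone 21 had a median of -0.25 and clone 17 one of 0.06. Genes of chromosomes 14 and 15 were left out of the genes called outside below, though the gene lists keep them.

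**Figure D1:**
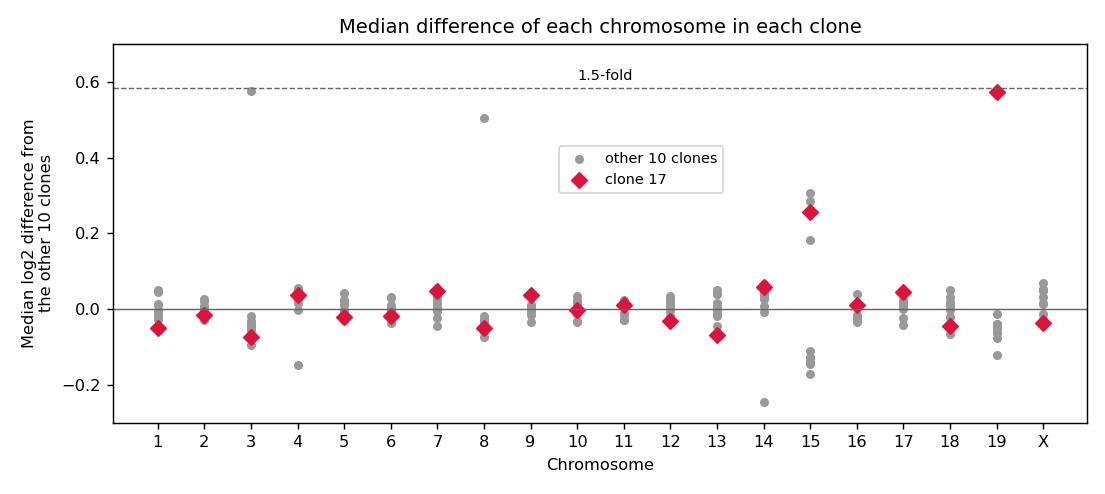
Median log2 difference over the genes of each chromosome (y axis) for each chromosome (x axis), each clone against the other 10, with clone 17 as red diamonds, the other clones as grey points and a dashed line at 1.5-fold. Clone 17 stands at 0.57 on chromosome 19, where every other clone lies between -0.12 and -0.01.

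A gene was counted as following the shift when its difference lay within a band around log2 of 1.5 (0.58), from 0.29 to 0.88 on the log2 scale or 1.22-fold to 1.84-fold. Of the 360 members, 237 (65.8%) lay in the band, 67 (18.6%) below it and 56 (15.6%) above it. Of the 9129 genes outside chromosomes 14, 15 and 19, 14.9% lay in the same band, 83.3% below it and 1.8% above it. The level in clone 17 was higher than in every other clone for 279 members (77.5%), against 13.6% of the genes outside. It was lower than in every other clone for 6 members (1.67%), against 14.5% outside. A total of 17 members had a difference at or under 0, and 38 had one over 1.

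The limits cut through a continuous distribution. Btaf1 and Hps1 lay just under the lower limit at 0.288 each, and AI837181 at 0.294 and Morn4 at 0.298 lay just over it. Near the upper limit, Sgms1 at 0.864 and Drap1 at 0.868 were inside, and Snx15 and Vps51, at 0.887 each, outside. Around its own centre the chromosome spread about as much as the rest of the genome did around 0: the interquartile range was 0.407 over the 360 members and 0.384 over the 9129 genes outside. An interval of the width of the band, centred on 1.5-fold, held 65.8% of members, and the same interval centred on 0 held 67.1% of the genes outside.

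Members with the highest counts mostly followed the shift. In what follows, the value after "against" is the mean ± SD over the other 10 clones, or the mean alone. Eif3a, which encodes the largest subunit of translation initiation factor eIF3, had 1480.4 CPM in clone 17 and 934 ± 43.05 in the others (SD, n = 10; from 871 to 1015, median 934). Its level in clone 17 was 1.58 times the mean of the others, and the 2 sets of values did not overlap. Sf3b2, a subunit of the splicing factor SF3b, stood at 696 CPM against 465 ± 23.5 (from 434 to 501, median 463), a difference of 0.58. Cfl1, the actin-severing protein cofilin, stood at 713 CPM against 437 ± 31.8 (from 394 to 503, median 437). Ddb1, the damage-recognition and ubiquitin ligase adaptor, had 2246 CPM against 1404 ± 138 (from 1169.97 to 1636, median 1412), and part of its end overlaps Tkfc on the other strand. In each of these 4 genes clone 17 stood above all other clones.

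Of the 12 members with the highest mean CPM, 10 lay in the band and 10 stood above every other clone. Those in the band were Ddb1, Eif3a, Scd2 (0.62), Ganab (0.37), Tnks2 (0.54), Hells (0.34), Sf1 (0.46), Sf3b2, Cfl1 and Hnrnpul2 (0.42). Eef1g, the gamma subunit of translation elongation factor eEF1, lay above it at 3314 CPM against 1637 ± 219 (from 1408 to 2121, median 1581), a difference of 1.03. Slc3a2, the heavy chain of several amino acid exchangers, lay below it at 549 CPM against 496 ± 52.3 (from 416 to 586, median 491). For Slc3a2, and for the chromatin remodeller Hells at 616 CPM against 496 ± 92.9, clone 17 was inside the range of the others.

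**Figure D2:**
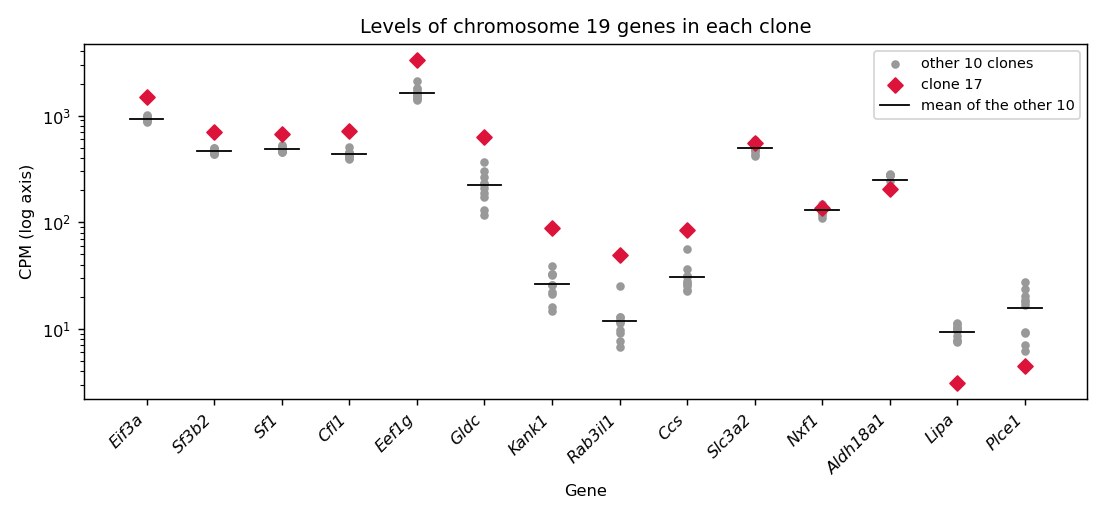
CPM on a log axis (y) of 14 chromosome 19 genes (x) in each clone, clone 17 as red diamonds, the other 10 clones as grey points and their mean as a line. Eif3a at 1480.4 CPM lies above all other clones, Slc3a2 at 549 among them, and Lipa at 3.10 below all of them.

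Members were also read by role. In the lists that follow, a median near 0.57 and a share of 77.5% above all other clones are the values of the chromosome as a whole. The 23 genes on the RNA processing, ribosome and translation list had a median of 0.58, with 21 in the band, 2 below and 0 above. Of these, 21 stood above every other clone. The list does not hold every member with such a role: Eef1g (1.03), above the band, and Smndc1 (0.11), below it, are not on it. Pprc1, a coactivator of the PGC-1 family, stood at 389 CPM against 249.7, and Nolc1, a nucleolar phosphoprotein, at 368 against 249.2. The list members below the band were Nxf1 and Cpsf7. Nxf1, the main export receptor for messenger RNA, stood at 135 CPM against 129.8 ± 11.7 (from 110.1 to 147, median 129), a difference of 0.06. Cpsf7, a subunit of the cleavage factor for polyadenylation, stood at 161.4 CPM, just under the highest of the others at 161.5.

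All 18 measured mitochondrial genes stood above every other clone, with a median of 0.64, 15 in the band, 0 below and 3 above. The complex I subunit Ndufv1 stood at 219 CPM against 128 ± 6.87 (from 116 to 137, median 129) and Ndufb8 at 102 against 67.1 ± 8.44. The 3 above the band were Ndufs8, another complex I subunit (76.8 CPM against 37.2 ± 5.01), the cytochrome oxidase subunit Cox8a (359 against 179 ± 15.4) and the peroxide-reducing enzyme Prdx5 (42.9 against 21.1 ± 1.63). Cox8a and Prdx5 departed from 1.5-fold by 3.50 and 3.84 of their SDs over the other clones. The lowest difference of the list was 0.35, of the adenylate kinase Ak3, inside the band.

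The DNA replication, repair and chromosome segregation list had 24 measured members, a median of 0.53, and 19 in the band. Of the 24, 22 stood above every other clone. Pola2, the regulatory subunit of DNA polymerase alpha, stood at 142 CPM against 84.5 ± 7.53, and the mitotic kinesin Kif11 at 484 against 351 ± 46.8. Mms19, which helps insert iron-sulphur clusters into DNA repair enzymes, stood at 326 CPM against 186 ± 9.08. It lay in the band at 0.81, yet 3.28 of its narrow SDs over 1.5-fold. Slf2, which takes part in recruiting the SMC5/6 complex to damaged DNA, was at 222 CPM against 222 ± 28.3 (from 161 to 251, median 224), a difference of 0.01. Rad9a, Ccnj and Cdk2ap2, at 0.26, 0.28 and 0.28, lay below the band and still above every other clone. Rnaseh2c, a subunit of ribonuclease H2, lay above the band at 1.42; its body overlaps Kat5 on the other strand, and no source used here says whether counting used strand, so reads of the overlap cannot be assigned.

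The 33 protein folding, ubiquitin and trafficking genes had a median of 0.52, with 22 in the band, 6 below and 5 above. Stip1, the co-chaperone that links Hsp70 and Hsp90, stood at 597 CPM against 356 ± 29.9. The insulin-degrading protease Ide stood at 272 CPM against 126 ± 23.8 (from 85.9 to 182, median 125), and the small GTPase Arl3 at 52.05 against 23.9 ± 6.89, both above the band. Below it lay the reticulon Rtn3 (0.13), the syntaxin Stx3 (0.11), the Arf exchange factor Gbf1 (0.19), the F-box protein gene Fbxw4 (0.04), Slc3a2 and the lipoprotein receptor gene Vldlr (-0.75). For the first 5 of these 6, clone 17 was inside the range of the others.

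Metabolic genes spread most widely of the 7 lists by band: of 24, 13 lay in the band, 3 below and 8 above, with a median of 0.60. Gldc, the glycine decarboxylase of the glycine cleavage system, had the highest CPM of the list's members above the band, at 629.7 CPM against 222 ± 76.4 (from 118 to 365, median 219), 2.84 times the mean of the others. The carnitine palmitoyltransferase gene Cpt1a stood at 563 CPM against 301 ± 48.1, and the long-chain acyl-CoA synthetase gene Acsl5 at 19.9 against 9.34 ± 2.59. Tm7sf2, a sterol reductase gene, stood at 28.8 CPM against 11.2 ± 2.04. Gstp1 and Gstp2, near-identical copies between which reads may be split, stood at 64.4 and 70.96 CPM against 30.2 and 31.7. Below the band lay Lipa (-1.33), the proline synthesis gene Aldh18a1 (-0.27) and the serine synthesis gene Psat1 (0.27). The glycolytic enzyme gene Pgam1 stood at 161 CPM against 91.2 ± 10.97, in the band.

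The signalling list had the lowest median of the 7 lists, 0.41 over 24 members, with 16 in the band, 6 below and 2 above. Sufu, a negative regulator of Hedgehog signalling, had 0.34, and the NF-kB subunit gene Rela 0.60. Lrp5, a WNT co-receptor, was at 322 CPM against 155 ± 45.7 (from 60.9 to 228, median 150.1) and Jak2, the kinase of cytokine receptors, at 42.8 against 20.9 ± 4.87. Chuk, a kinase of the NF-kB pathway, stood at 136 CPM against 128 ± 18.5, inside the range of the other clones. The oxygen-sensing hydroxylase gene Hif1an lay below the band at 0.21, with 166 CPM just above the highest of the others, 163.

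Of 27 transcription and chromatin genes, with a median of 0.55, 17 lay in the band, 8 below and 2 above. Mta2, a subunit of the NuRD complex, stood at 291 CPM against 186 ± 10.2 (from 171 to 199.97, median 187). The nuclear receptor gene Esrra stood at 34.2 CPM against 17.3 ± 2.54, and the homeobox gene Hhex at 17.7 against 7.80 ± 1.30, both above the band. Men1, the menin scaffold of MLL histone methyltransferase complexes, had 72.9 CPM against 60.3 ± 2.45. With the smallest spread among the members it lay below the band at 0.27, -5.52 SDs from 1.5-fold, while still above the highest of the others at 64.7. The corepressor gene Rcor2 (-0.18) and Dmrt1 (-0.53), a transcription factor of the germ line, were inside the range of the other clones.

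The members that departed most from the shift on the low side were Plce1 and Lipa. Plce1, phospholipase C epsilon, stood at 4.45 CPM against 15.6 ± 7.37 (from 6.16 to 27.4, median 17.3). Lipa, the lysosomal acid lipase that frees cholesterol from its esters, stood at 3.10 CPM (39 counts) against 9.43 ± 1.41 (from 7.55 to 11.4, median 9.77), 3.04 times lower than the mean of the others. Both lay below all other clones, Lipa at -9.66 SDs from 1.5-fold and Plce1, which varied widely among the other clones, at -2.89. The 10 next lowest were Vldlr, Myrf (-0.75), Abcc2 (-0.58), Dmrt1, Rbm20 (-0.47), Pga5 (-0.44), Fam111a (-0.39), Pla2g16 (-0.31), Crtac1 (-0.31) and Shtn1 (-0.30). Of these 12, 5 stood below all other clones and 7 within their range.

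Of all 360 members, 17 lay at least 3 SDs of the other clones below 1.5-fold and 5 at least 3 SDs above it, together 6.11%, beside 5.72% of the genes outside that lay as far from 0. The 17 were Lipa, Smndc1, Men1, Aldh18a1, Tbc1d12, Rbm20, Nxf1, Atad1, Nhlrc2, Naa40, Rab11fip2, Fam45a, Minpp1, Ccdc186, Cdk2ap2, R3hcc1l and Plpp6. Aldh18a1, at 204 CPM against 248 ± 32.6 (from 206 to 284), stood just below the lowest of the others, and Smndc1, a spliceosome assembly factor gene, at 145 against 135 ± 9.29, among them. The 5 on the high side were Tm7sf2, Prdx5, Cox8a, Tkfc and Mms19. Tkfc, a triose kinase gene, overlaps Ddb1 on the other strand.

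The largest differences on the high side belonged to Rab3il1 and Kank1. Rab3il1, an exchange factor for Rab GTPases, stood at 48.8 CPM against 11.9 ± 5.18 (from 6.74 to 25.4, median 11.6), 4.08 times the mean of the others. Kank1, which links integrin adhesions to microtubules, stood at 88.8 CPM against 26.1 ± 7.83 (from 14.6 to 38.7, median 25.5). In both, clone 17 was well clear of the highest other clone. Next came Actn3 (1.64), Stambpl1 (1.59), Gldc (1.58), Ccs (1.49), Ostf1 (1.46), Ablim1 (1.43), Rnaseh2c (1.42), Pkd2l1 (1.37), Acy3 (1.31) and Pip5k1b (1.31). Ccs, the copper chaperone of superoxide dismutase, stood at 84.7 CPM against 30.6 ± 9.74. Pkd2l1, a cation channel gene, was the one of these 12 inside the range of the others, at 28.3 CPM with other clones from 1.42 to 40.6, median 10.8. In 7 of the 12, clone 19 had the highest level among the other 10 clones. How often clone 19 is the highest over all members was not counted, so no likeness to clone 17 can be read from this. Clone 19 also had the most genes standing apart by the rule given below, 130.

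The promoters of a member that followed, one that lay below all clones and one far above the band are shown because CG dinucleotide content, a feature the selection did not use, differs widely between them. Each is the 250 bases before the RefSeq gene start in GRCm38.p6, on the minus strand, written 5′ to 3′ with every CG in capitals. The sites are chr19:60790694-60790943 for Eif3a, chr19:34527475-34527724 for Lipa and chr19:30175442-30175691 for Gldc.
Eif3a: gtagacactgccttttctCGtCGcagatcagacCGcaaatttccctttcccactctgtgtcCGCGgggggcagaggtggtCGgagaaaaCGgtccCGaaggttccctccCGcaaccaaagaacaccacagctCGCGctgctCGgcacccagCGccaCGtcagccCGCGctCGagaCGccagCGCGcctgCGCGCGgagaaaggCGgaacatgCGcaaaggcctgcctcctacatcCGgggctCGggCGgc
Lipa: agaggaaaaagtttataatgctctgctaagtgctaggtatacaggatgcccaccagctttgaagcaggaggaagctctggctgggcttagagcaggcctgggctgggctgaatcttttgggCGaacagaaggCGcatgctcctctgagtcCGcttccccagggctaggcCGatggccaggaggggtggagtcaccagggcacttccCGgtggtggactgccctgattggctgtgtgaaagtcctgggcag
Gldc: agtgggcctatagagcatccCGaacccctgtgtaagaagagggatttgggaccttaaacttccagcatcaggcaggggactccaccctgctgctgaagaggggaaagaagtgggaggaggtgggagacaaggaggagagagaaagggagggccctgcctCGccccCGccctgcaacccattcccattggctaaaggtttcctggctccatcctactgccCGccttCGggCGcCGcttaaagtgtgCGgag
The Eif3a promoter holds 28 CG, a number reached by 6.63% of gene promoters in the RefSeq table, whereas that of Lipa holds 5, reached by 56.0%, and that of Gldc 8, reached by 43.8%. At least 1 CG occurs in 92.1% of all promoters of this length, and the letters CG read the same on both strands. Over the 294 members with a promoter in the table the median number of CG was 18 below the band, 18 in it and 17 above it, so the medians of the 3 groups were close. Over all 27025 genes with a promoter in the table the median was 6. That set was not limited to genes averaging at least 5 CPM, so it is not a like comparison for the members.

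The spread of a gene among the other 10 clones and its transcript length did differ between the bands. The median length of the longest transcript was 2964 bases above the band, 3419 in it and 3895 below it, and the trend with length outside chromosome 19 is given with the gene order. Members were put in 4 groups of 90 by the SD of their log2 level over those clones, from the steadiest to the most variable. The band held 85.6, 77.8, 56.7 and 43.3% of the groups in that order, while the median difference of each group stayed between 0.56 and 0.59. The median SD was 0.155 in the band, 0.228 below it and 0.257 above it. Median levels in the other clones were 46.4 CPM in the band, 34.3 below and 24.2 above. The share in the band was thus lower in each more variable group, while the centre of the groups hardly moved. The same groups were not formed for the genes outside, so whether the fall is particular to chromosome 19 was not tested. Men1, Nxf1 and Smndc1, on the low side, and Prdx5 and Cox8a, on the high side, are departures among steady genes. Plce1, Myrf, Pkd2l1 and Actn3 are departures among variable ones.

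**Figure D3:**
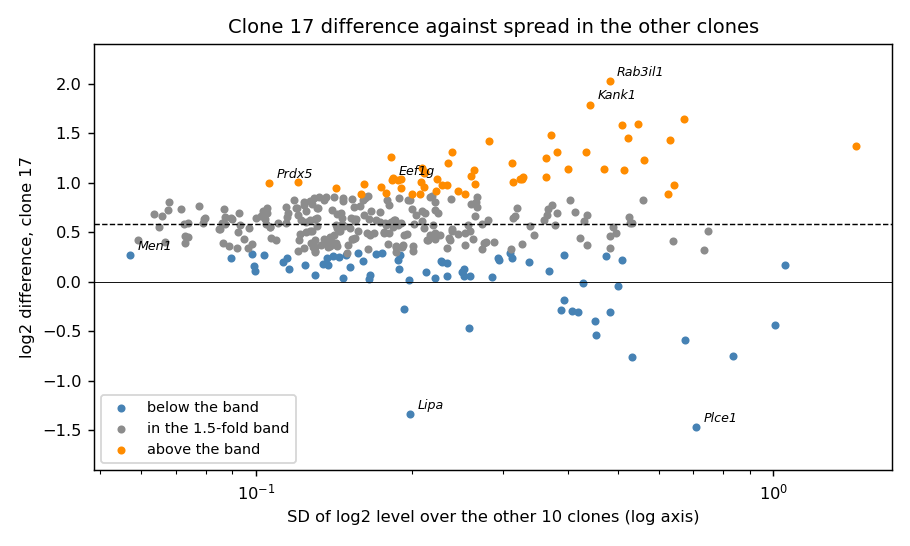
Log2 difference in clone 17 (y axis) against the SD of the log2 level over the other 10 clones (x axis, log scale) for the 360 chromosome 19 genes, with the dashed line at 1.5-fold. Steady genes at the left gather around the line, where the band holds 85.6% of the 90 steadiest, and the points fan out to the right, where it holds 43.3% of the 90 most variable.

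Along the chromosome the shift was present from end to end. In 336 overlapping windows of 25 neighbouring members, the median in clone 17 ran from 0.36 to 0.77, and in the other 10 clones from -0.34 to 0.13. No window of clone 17 reached down to the level of any other clone's windows. In 10 successive groups of 36 genes in gene order the medians were 0.69, 0.65, 0.66, 0.59, 0.46, 0.55, 0.43, 0.48, 0.60 and 0.43. The group from Ighmbp2 to Actn3 held 14 members above the band and that from Minpp1 to Arhgap19 held 13 below it. Transcript length and GC content moved with these values. Outside chromosomes 14, 15 and 19, the clone 17 median ran from 0.08 for the shortest to -0.05 for the longest transcripts, in 4 groups by length, and from -0.08 to 0.06 from the lowest to the highest GC. On chromosome 19 the same groups ran from 0.65 to 0.49 by length and from 0.49 to 0.60 by GC. With the outside median of the same length and GC group subtracted, a step added after the data were seen, the 10 groups read 0.67, 0.57, 0.58, 0.59, 0.50, 0.57, 0.52, 0.47, 0.59 and 0.46. The part of length and GC in single genes was not tested.

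**Figure D4:**
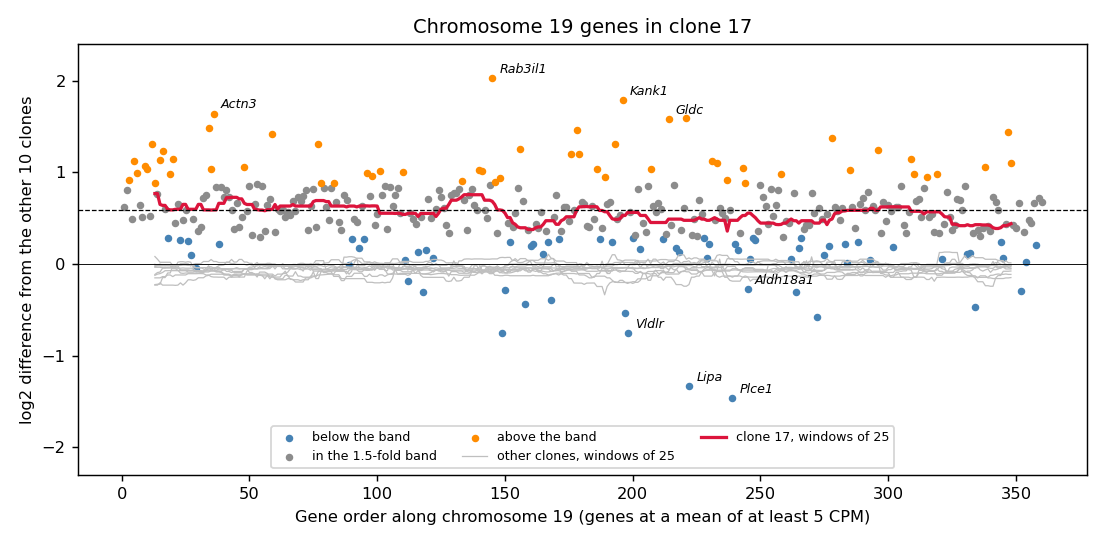
Log2 difference in clone 17 (y axis) of 360 chromosome 19 genes in gene order (x axis), coloured by band, with the median of windows of 25 genes in red for clone 17 and in grey for the other clones and a dashed line at 1.5-fold. The red line stays between 0.36 and 0.77 over the whole chromosome and the grey lines between -0.34 and 0.13.

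A pair of other clones has a whole-chromosome median of similar size, and their values are set beside those of clone 17 with no test, since each comparison shares libraries with the others. In clone 16 the 463 genes of chromosome 3 had a median of 0.58, with 71.5% in the band, 12.7% above it and 77.3% above every other clone. In clone 22 the 566 genes of chromosome 8 had a median of 0.51, with 78.6% in the band, 4.95% above it and 74.2% above every other clone. Clone 17 had 65.8% of chromosome 19 in the band and 15.6% above it. The interquartile range was 0.407 on chromosome 19 in clone 17, 0.335 on chromosome 3 in clone 16 and 0.2498 on chromosome 8 in clone 22. The clones had the same order elsewhere: over the 8100 genes outside chromosomes 3, 8, 14, 15 and 19 it was 0.384 in clone 17, 0.331 in clone 16 and 0.262 in clone 22.

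Outside chromosomes 14, 15 and 19, a gene was taken to stand apart in clone 17 when it differed by at least 1 on the log2 scale, lay outside the range of the other 10 clones and was at least 4 of their SDs from their mean. Of 9129 genes, 13 did so on the high side (0.142%) and 41 on the low side (0.449%). Mvb12b at -3.96 SDs and Tspan6 at -3.99 just missed the limit, and Lmna at 4.03 just met it. The counts rest on which clones form the reference: without clone 19 they were 20 and 76, and 48 of the 54 genes were shared. By the same rule, with shared reference libraries, the other clones had from 0 (clone 18) to 130 genes (clone 19), and clone 16 had 54.

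The higher genes were led by Med12l and Limch1. Med12l, a paralogue of the Mediator kinase module subunit Med12, stood at 59.7 CPM against 11.4 ± 4.42 (from 4.73 to 19.03, median 10.1), 5.26 times the mean of the others. Limch1, an activator of non-muscle myosin II, stood at 33.9 CPM against 6.08 ± 2.35 (from 3.25 to 10.6, median 5.90). Cdk19, a kinase of the same Mediator module, stood at 107 CPM against 39.8 ± 5.30 (from 31.03 to 49.5, median 39.8). In these 3 genes clone 17 exceeded the highest other clone by a wide margin. The collagen lysyl hydroxylase gene Plod1 stood at 101 CPM against 34.7 ± 9.03, and Kit, the receptor of stem cell factor, at 288 against 114 ± 19.3. The other members were Igdcc4 (1.43), Nxn (1.24), Arhgap4 (1.15), Znfx1 (1.11), the lamin gene Lmna (1.11), Tspan15 (1.10), the drug efflux transporter gene Abcc1 (1.03) and Atl1. Several receptor genes overlap Med12l on the other strand.

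Of the 33 listed Mediator genes, 32 were measured, with a median difference of -0.01, so that Med12l and Cdk19 stood apart from the rest of the list. Cdk8, the paralogue of Cdk19, was at 43.6 CPM against 56.1 ± 4.88 (from 48.9 to 64.2, median 56.8), and Ccnc, the cyclin of both kinases, at 47.3 against 58.4 ± 3.68. Both lay below every other clone. In all, 5 of the 32 stood above and 6 below every other clone, shares near those of the genes outside (13.6% and 14.5%).

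Pax6, a transcription factor of eye and neural development, averaged under 5 CPM over the clones and so was not among the genes counted as standing apart. It was at 10.2 CPM (128 counts) in clone 17 and 0.985 ± 0.465 in the others (from 0.520 to 1.82, median 0.897), 10.3 times their mean. The other neural markers did not share a direction. Of 6 measured members, 2 of them on chromosomes 14, 15 or 19, the median was -1.04. Atl1 (described with its neighbours) stood above all other clones and 1 member below them, beside 13.6% and 14.5% of the genes outside. Like Pax6, Atl1 was named for clone 17 beforehand, so its level adds no separate evidence here. The member below was the adhesion gene Ncam1, at 20.7 CPM against 81.9 ± 16.2 (from 51.3 to 107, median 80.4). The neurofilament gene Nefm (5.40 CPM), the tubulin gene Tubb3 (22.2) and the intermediate filament gene Nes (48.2) were within the range of the others. Dcx and Neurog2 were at 0.238 and 0 CPM in clone 17. The list summed to 145 CPM in clone 17 and to between 163 and 375 in the others.

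The 41 lower genes were led by Nbea, a large scaffold protein of membrane traffic, at 1.35 CPM (17 counts) against 15.2 ± 8.14 (from 5.66 to 36.6, median 13.6). Lrrn2, which encodes a leucine-rich repeat membrane protein, stood at 4.05 CPM against 28.4 ± 9.76. The transcription factor gene Atf5, of the integrated stress response, stood at 34.6 CPM against 168 ± 44.4 (from 74.9 to 245, median 180.5). Lrch2, at 6.44 CPM against 22.997 ± 1.85 (from 20.5 to 26.7, median 23.04), lay -15.4 SDs from the others, the farthest of the 54. The rule for standing apart requires clone 17 to lie outside the range of the others, so the lack of overlap in these 4 is no separate result. Others on the low side were Kcnt2 (-2.17), Evc2 (-2.00), Tcaf1 (-1.94), Phldb1 (-1.93), Rsph4a (-1.86) and Chrna7 (-1.84). Chromosome X held 7 of the 54 among 335 measured genes (2.09%), 6 of them lower, the adjacent Armcx2 and Armcx3 included. Chromosome 3 also held 7, among 463 (1.51%). Over all genes outside, 0.142% stood apart on the high side and 0.449% on the low side.

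**Figure D5:**
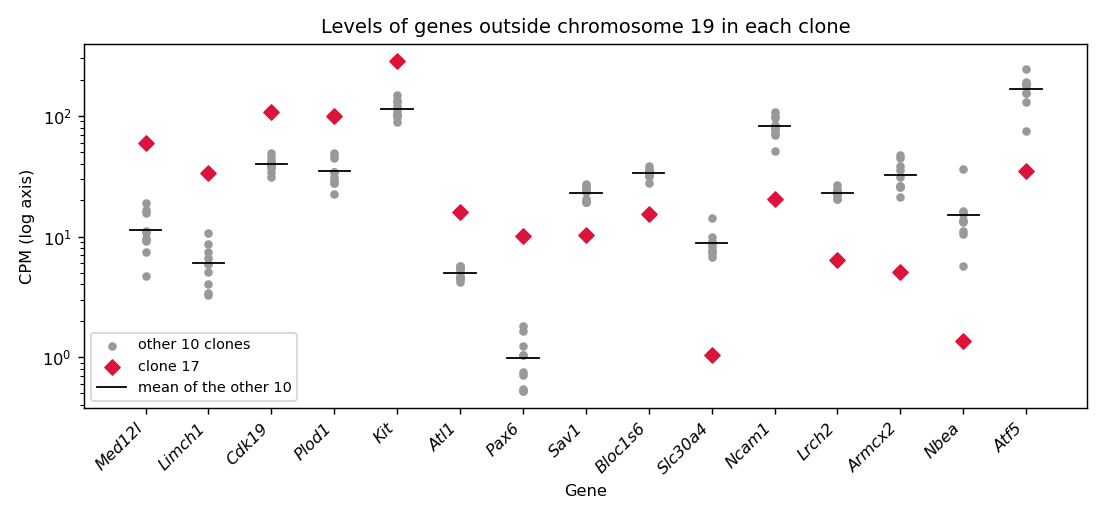
CPM on a log axis (y) of 15 genes outside chromosome 19 (x) in each clone, clone 17 as red diamonds, the other 10 clones as grey points and their mean as a line. Med12l at 59.7 CPM and Limch1 at 33.9 lie above all other clones, and Slc30a4 at 1.03 and Nbea at 1.35 below all of them.

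In 3 places genes that stood apart were neighbours, with 0 to 2 genes of the table between them. Such pairs were not counted in the other clones, so 3 cannot be read as many or few. Slc30a4, a zinc transporter gene of chromosome 2, was at 1.03 CPM (13 counts) against 8.79 ± 2.10 (from 6.72 to 14.1, median 8.43). The next gene of the table, Bloc1s6, a subunit of the complex that forms lysosome-related organelles, was at 15.4 CPM against 33.8 ± 2.88 (from 27.9 to 38.6, median 34.4). The pair lie on opposite strands without overlap, and both were lower, below all other clones as the rule requires. On chromosome X the armadillo-repeat genes Armcx3 (1.03 CPM against 7.08 ± 2.68) and Armcx2 (5.09 against 32.3 ± 8.93) are adjacent and were both lower. Nearby family members were within the range of the others, Armcx1 at 0.08 and Armcx4 at -0.52.

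On chromosome 12 neighbours differed in opposite directions. Atl1, a GTPase that fuses endoplasmic reticulum tubules, was at 16.1 CPM against 4.997 ± 0.572 (from 4.22 to 5.75, median 4.89), and Sav1, an adaptor of the Hippo kinases, at 10.3 against 22.98 ± 3.17 (from 19.2 to 27.1, median 23.8). Nin, the next measured gene after Sav1, was at 9.46 CPM against 20.98, below all other clones though fewer than 4 SDs away. Map4k5, on the far side of Atl1, was within the range at 0.16. Atl1 and Sav1 overlap at their ends on opposite strands. Where the reporters of clone 17 integrated was not used here, so their distance from these genes was not tested.

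Other lists fixed for the comparison are given by their medians beside that of all genes outside, -0.01. Of 20 measured zinc transport and metallothionein genes the median was 0.08. Besides Slc30a4, Slc30a7 was at 30.99 CPM against 44.1 ± 7.16, below all others, and Slc39a4, on chromosome 15, at 134 against 70.9 ± 20.5, above them. Of 28 Polycomb genes the median was -0.03. Cbx2, a chromodomain subunit of Polycomb repressive complex 1 and one of the 41 lower genes, was at 15.4 CPM against 40.3 ± 4.85 (from 32.6 to 46.7, median 42.3). The members on chromosome 19, Pcgf5 (0.70) and Pcgf6 (0.55), were in the band.

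The glycolysis and hypoxia genes were higher in clone 17 as a list, though only Pgam1 of those named here lies on chromosome 19. Over 23 measured members the median was 0.57, and 15 (against 13.6% of genes outside) stood above every other clone. Lactate dehydrogenase Ldha was at 686 CPM against 389 ± 86.6 (from 233 to 499.5, median 377), aldolase Aldoa at 2677 against 1708 ± 289.8 (from 1259.9 to 2201, median 1754), and phosphofructokinase Pfkl at 394 against 234 ± 55.5 (from 145 to 292, median 242). In these 3 genes clone 17 was above all other clones. Gapdh was at 84.5 CPM against 69.6 ± 5.48 and Pgk1, whose promoter the reporters carry, at 414 against 319 ± 48.3. The enolase gene Eno2 was lower than in all others, at 4.21 CPM against 7.92 ± 1.82. The list summed to 13999.8 CPM in clone 17 and to between 9741 and 13115 in the others. Clones 24, 25 and 26 had medians of -0.21, -0.37 and -0.27 on this list. Clones 20, 16 and 19 had 0.26, 0.19 and 0.12, and the rest lay from -0.14 (clone 21) to 0.10 (clone 18). Without clones 24, 25 and 26 the clone 17 median was 0.44, and 15 members were still above all the remaining clones.

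Pluripotency genes had a median of -0.01 over 21 measured members, yet the list summed to 10699.7 CPM in clone 17, below the lowest of the others (11045 to 12794). A total of 5 members stood below every other clone, beside 14.5% of the genes outside. These were Klf4 (239.97 CPM against 454 ± 65.6), Klf2 (214 against 347 ± 61.9), Esrrb (1030.4 against 1423 ± 137), Nanog (621 against 764 ± 83.4) and Sox2 (718 against 857 ± 77.7). Utf1, at 239 CPM, was above all others. Of 7 primed epiblast genes, 4 of them on chromosomes 14, 15 or 19, the median was -0.59. Otx2, on chromosome 14, was at 13.7 CPM, within a range of 12.2 to 54.9, and Sall2, on the same chromosome, at 2.94, below all others. The signalling ligand gene Nodal was also below all others, at 84.5 CPM against 105 ± 12.8, and the DNA methyltransferase gene Dnmt3b above them, at 149 against 114 ± 11.3.

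Imprinted genes, whose transcripts come from a single parental allele, had a median of -0.13 over 21 measured members, 3 above and 2 below every other clone, beside 13.6% and 14.5% of the genes outside. The maternally expressed Phlda2 was at 1.59 CPM against 9.35 ± 5.90, below all others, and Slc38a4, on chromosome 15, at 969 against 485 ± 129.7, above them. Grb10 (39.3 CPM against 219 ± 123), Mest (11.2 against 40.7 ± 26.97) and Peg10 (22.8 against 70.2 ± 40.3) differed by more than 1 on the log2 scale but lay within the range of the other clones. Of 22 p53 targets the median was -0.19, with 20 within the range, Cdkn1a (64.8 CPM against 73.2) and Mdm2 (125 against 143) among them. Gadd45a, at 11.3 CPM against 29.6 ± 14.2, was below all others.

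Of 20 heat shock and unfolded protein genes the median was 0.03. The constitutive chaperone gene Hspa8 was at 266 CPM against 164 ± 34.6, above all others, and the stress transcription factor genes Atf3 (4.37 against 16.4 ± 7.95) and Ddit3 (33.1 against 56.6 ± 11.3) were below them. Markers of other cell types were few at this level. Of the primitive endoderm list 6 of 15 genes were measured, with a median of -0.05: Gata6 and Sox17 were at 0.636 and 0 CPM in clone 17, and the laminin gene Lama1 at 323 against 187 ± 47.4. Of the trophoblast list 4 of 9 were measured (median 0.14), 3 of 14 fibroblast genes (median 0.24) and 1 of 12 genes of primitive streak and mesoderm (0.11). All of the measured members of these last 3 lists were within the range of the other clones.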

How the data were processed

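The authors deposited 1 table of raw read counts per gene, whole numbers for 22369 mouse Ensembl gene IDs in 11 libraries, 1 for each clone. Alignment tools named by the submitters' processing notes are TopHat 1.4.0 and Bowtie 0.12.7, beside the builds mm9 and hg19. The deposited table is named for protein-coding genes of Ensembl release 66. No source used here gives the counting tool, its use of strand or what it did with reads that match several places. RNA was extracted by RNeasy columns and made into TruSeq libraries, per the labels' protocols.

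Chromosome, gene order and symbol came from GENCODE vM21 for 20777 IDs. Its build, GRCm38, is newer than mm9, so no gene coordinates are given except those of RefSeq promoters on GRCm38.p6. The IDs without a chromosome held 0.401% of counts, and 80 of them averaged at least 5 CPM. Counts were scaled to CPM with TMM factors (0.971 to 1.04) of edgeR 4.0.16 in R 4.3.3. Differences used a pseudocount of 1 CPM and genes averaging 5 CPM or more, in Python 3.11.15 with NumPy 2.4.6 and pandas 2.3.3, with SciPy 1.17.1 for the confidence interval and matplotlib 3.10.9 for figures. The steps were checked on simulated data. DESeq2 1.42.0 gave the size factors of an alternative. No gene was tested, since clone 17 has 1 library and was selected on these counts.

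The members, the role lists and the rules were chosen with earlier results of these data known. Named genes are the 12 chromosome 19 genes with the highest mean CPM, the 12 lowest and the 12 highest by difference. To these come, for each role list, its 3 members of highest mean CPM and up to 4 below and 4 above the band, and the genes at the limits. Outside they are up to 12 higher and 12 lower genes that stand apart, Limch1, Med12l, Atl1, Pax6 and Slc30a4, and members of lists with the largest differences. Genes 3 SDs from 1.5-fold, neighbours of genes that stand apart and further list members were named after their values were seen. Other settings tried were scaling, filters, pseudocount, the reference level, each clone left out, and transcript length with GC. Reporter integration sites were not used here, and a few genes that the rule names are not reported here.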

Additional observations from a re-analysis of the deposited data

How the results depend on the processing

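The chromosome 19 median, its band counts and its count above all other clones were unchanged or within 1.5 times their value with DESeq2 size factors, with TMM factors from genes outside chromosomes 14, 15 and 19, with a pseudocount of 0.1 CPM, with the median of the other clones as reference, and the median and band counts also with transcript length and GC subtracted (median 0.55, with 69 below, 241 in and 50 above the band). Without genes that overlap another gene the median was 0.57. The filter on low levels moved some of these. At a mean of at least 20 CPM there were 41 genes below the band, 34 above it, and 6 higher and 15 lower genes standing apart outside, since fewer genes pass. At a mean of at least 1 CPM, 22 higher genes stood apart. With no filter the median was 0.39, 256 genes lay below the band and 32 higher genes stood apart; genes with few counts then enter, and the added 1 CPM holds their differences near 0. Leaving out each other clone in turn gave a median of 0.56 to 0.58, 230 to 242 genes in the band, 63 to 67 below, 53 to 62 above, 279 to 283 above all others, and 10 to 20 higher and 38 to 76 lower genes standing apart. Both highest counts came without clone 19. Whichever clone was left out, at least 47 of the 54 genes remained. The check on single genes covered the chromosome 19 genes highest in mean CPM and those lowest or highest in difference. It also covered the 54 genes standing apart, Pax6 and the embryonic stem cell markers. The other genes named here were not checked. Of the checked genes, 16 moved by more than the spread between clones, all with a pseudocount of 0.1 CPM (Slc30a4 then -2.94, Pax6 3.36, Lipa -1.56). With the other scaling factors none of the checked genes moved that far, and 0 of those outside the range of the other clones reversed. Leaving out a clone, or taking the median of the others as reference, could neither move a gene by that SD nor reverse it. These settings are therefore no check on single genes. Depth limits the lowest genes: Slc30a4 and Armcx3 rest on 13 counts each in clone 17. No paired analysis was possible because all clones form 1 group and the result comes from no test.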
